A study of Mus musculus with 2 samples.

Results

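Olfactory receptors (*Olfr*), vomeronasal receptors of type 1 and type 2 (*Vmn1r* and *Vmn2r*) and trace amine-associated receptors (*Taar*) were examined in mouse tongue as the rows of the deposited expression table whose gene symbol begins with 1 of these names. The rule took 95 of 18498 rows, of which 59 were *Olfr*, 8 *Vmn1r*, 26 *Vmn2r* and 2 *Taar* rows. *Vmn2r46* was listed at 2 positions, so that the rows held 94 symbols. The rule used names only and no measured value.

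These receptors are G protein-coupled receptors, and most of them act in the nose. In the olfactory epithelium each sensory neuron expresses 1 odorant receptor, which acts through the G protein subunit encoded by *Gnal*, adenylyl cyclase 3 and a cyclic nucleotide-gated channel. Most trace amine-associated receptors, but not *Taar1*, detect amines in a separate group of olfactory neurons. Vomeronasal receptors detect pheromones and related cues in the vomeronasal organ, where the channel encoded by *Trpc2* carries the response. Taste cells of the tongue use other receptors, among them the *Tas2r* bitter receptors.

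The study compared the circumvallate papillae (CvP), taste papillae of the posterior tongue, with epithelium of the tongue that carried no papillae (Epi), to find genes of the taste papillae. Both groups were male C57BL/6J mice, 12 to 30 weeks old and fed normal chow, with no genetic change and no treatment. RNA of at least 20 mice was pooled for each tissue and 1 poly(A) library was sequenced per tissue, so that neither group had a replicate. Every comparison below is therefore between 2 libraries, no test across samples was possible, and the intervals given cover counting error only. In bulk tissue, fewer cells that carry a transcript and less transcript per cell cannot be told apart.

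Expression was deposited as RPKM, which scales the reads of a gene by its exon length in kilobases and by library size, printed to 2 decimals. The steps between low RPKM values in rows of 0.1 kb placed the depth near 28370000 mapped reads for the CvP library and 27900000 for the Epi library, and reads per row were estimated from RPKM, listed length and depth. At these depths 1 read was worth 0.0377 RPKM in the CvP against 0.0383 in the Epi at the length of *Olfr901* (0.936 kb). The longest receptor row had 4.34 kb, where 1 CvP read was worth 0.00813 RPKM, so that an RPKM of 0 stood for less than 1 read in every receptor row. A row was called above the floor when it had more than 3 estimated reads. The CvP estimates of all rows together came to 50114603 reads and the Epi estimates to 55752743, each more than the depth of its library. At these depths the estimates of some rows must therefore be too high. How far this holds for the receptor rows is not known. The read counts, the floor and the intervals below all rest on these estimates. Taste markers were present in the CvP library. Over 7 type II taste cell genes the summed RPKM was 314 in the CvP against 22.9 in the Epi. *Itpr3* alone had 30.1 in the CvP and 21.91 in the Epi, and so made most of the Epi sum. Over 5 type III genes the sums were 89.3 and 0.430.

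The 6 *Olfr* rows with the highest CvP RPKM are shown first as sequence, because near-identical receptors limit what a read of 75 bases can assign. The stretches of 75 coding bases below, read 5′ to 3′ from the genome NCBI37/mm9 on the strand of each gene, surround the conserved DRY motif of G protein-coupled receptors, whose 9 bases are in capitals. *Olfr461* lies at chr6:40494578-40494652, *Olfr901* at chr9:38238196-38238270, *Olfr1414* at chr1:94408202-94408276, *Olfr1415* at chr1:94387929-94388003, *Olfr1416* at chr1:94376795-94376869 and *Olfr1372-ps1* at chr11:51969384-51969458, with *Olfr901* on the plus strand and the others on the minus strand.
*Olfr461*: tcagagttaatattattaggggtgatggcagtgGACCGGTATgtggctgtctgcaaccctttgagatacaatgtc
*Olfr901*: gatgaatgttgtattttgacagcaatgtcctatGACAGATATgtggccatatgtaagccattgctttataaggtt
*Olfr1414*: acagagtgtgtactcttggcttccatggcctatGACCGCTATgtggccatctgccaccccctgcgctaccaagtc
*Olfr1415*: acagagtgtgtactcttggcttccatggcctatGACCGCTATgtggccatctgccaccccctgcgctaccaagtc
*Olfr1416*: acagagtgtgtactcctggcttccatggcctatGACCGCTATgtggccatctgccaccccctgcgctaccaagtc
*Olfr1372-ps1*: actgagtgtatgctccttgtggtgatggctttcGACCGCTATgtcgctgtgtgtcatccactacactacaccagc
The stretches of *Olfr1414* and *Olfr1415* differed at 0 of 75 bases, and that of *Olfr1416* differed from both at 1 base. *Olfr461* and *Olfr901* differed from each other at 36 bases and from these 3 genes at 26 to 29 bases. Over the aligned coding exon, *Olfr1415* and *Olfr1416* were 94.7% identical, *Olfr1414* and *Olfr1416* 92.5%, and *Olfr1414* and *Olfr1415* 91.9%, while the other pairs of these 6 receptors reached 62.1% to 65.9%.

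Receptor transcripts were scarce in both libraries and scarcer in the Epi. Of the 95 rows, 25 were at RPKM 0 in the CvP (26.3%) against 71 in the Epi (74.7%), against 4.84% and 11.9% of all rows of the table. A row was above 0 in the CvP alone 50 times, in the Epi alone 4 times and in both libraries 20 times. The remaining 21 rows (22.1%) were at 0 in both, against 2.51% of all rows and 3.15% of all rows in the same range of lengths. The median receptor row had an RPKM of 0.0400 in the CvP, which was 1 read, and 0 in the Epi, against medians of 3.74 and 1.94 over all rows.

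Most of the receptor rows that were not at 0 rested on very few reads. In the CvP, 45 rows had 1 to 3 reads, 17 had 4 to 10, 5 had 11 to 50 and 3 had over 50. In the Epi, 18 rows had 1 to 3 reads, 4 had 4 to 10, 1 had 11 to 50 and 1 had over 50. The 580 estimated CvP reads and 153 Epi reads of all members were thus spread over many rows at or near the smallest level that the libraries could show, and 49 rows had at most 1 read in each library.

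**Figure D1:**
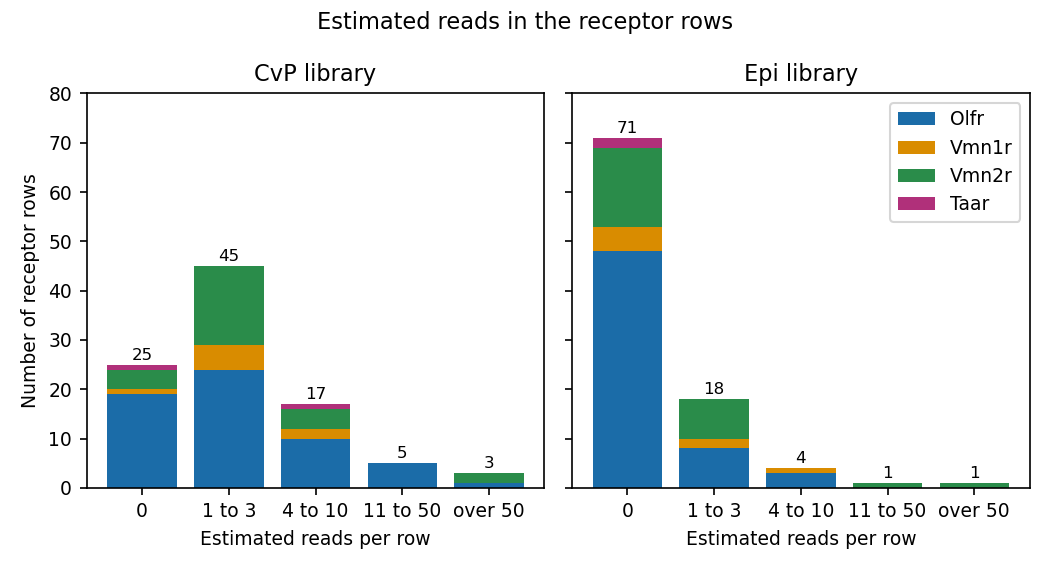
Number of receptor rows (vertical axis) by estimated reads per row (horizontal axis) in the CvP library (left) and the Epi library (right), coloured by family. The Epi has 71 rows without a read and the CvP 25, and 3 CvP rows and 1 Epi row exceed 50 reads.

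More than 3 reads were found for 25 members in the CvP (26.3%) against 6 in the Epi (6.32%), with 4 of them above this floor in both libraries. Over all rows of the table these shares were 86.7% and 78.0%. In the CvP the members above the floor were 16 of 59 *Olfr* rows (27.1%), 2 of 8 *Vmn1r* rows, 6 of 26 *Vmn2r* rows (23.1%) and 1 of 2 *Taar* rows. In the Epi they were 3 *Olfr*, 1 *Vmn1r* and 2 *Vmn2r* rows. These shares were close, although the *Taar* count rests on only 2 rows.

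A short gene needs a higher RPKM to show a read, and 44 members had a listed length of at most 1.1 kb. Of these, 12 passed the floor in the CvP (27.3%) against 2 in the Epi (4.55%), against 63.9% and 48.6% of all rows from the shortest member (0.894 kb) to 1.1 kb. Of the 36 members over 2 kb, 10 passed in the CvP (27.8%) against 3 in the Epi (8.33%), against 86.4% and 76.3% of all rows from there to the length of the longest member. The 15 members of intermediate length passed in 3 cases in the CvP (20.0%) against 1 in the Epi (6.67%). The share of receptor rows above the floor was therefore similar in the 3 length ranges in the CvP, while that of all rows rose with length.

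**Figure D2:**
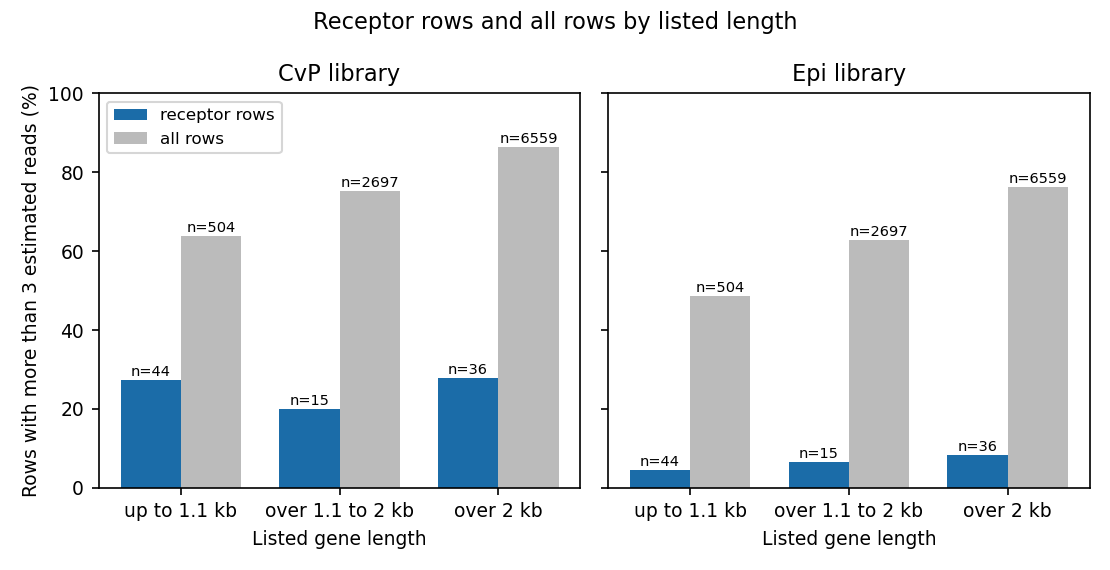
Share of rows with more than 3 estimated reads (vertical axis, percent) by listed gene length (horizontal axis) for receptor rows (blue) and all rows (grey) in the CvP (left) and Epi (right) libraries, with the number of rows above each bar. Receptor rows lie below all rows in every length range, at 20.0% to 27.8% in the CvP and 4.55% to 8.33% in the Epi.

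The comparison with other receptors of the table sets the scale. The 35 *Tas2r* bitter receptor rows, most of which also have a short coding exon like the *Olfr* genes, had a median CvP RPKM of 3.56, and 34 of them passed the floor in the CvP against 0 in the Epi, where 32 were at 0. The 86 rows whose symbol begins with *Gpr*, G protein-coupled receptors of many tissues, had medians of 0.190 and 0.0750 and passed in 66 and 49 cases. The highest receptor row reached 1.53 RPKM in the CvP against 0.550 in the Epi.

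The most abundant member was *Olfr1372-ps1* (Entrez Gene 257871), which the reference annotation lists as a pseudogene. It had 1.53 RPKM in the CvP (165 reads, 95% exact Poisson interval 1.31 to 1.78) against 0 in the Epi. Against 3 Epi reads (0.0283 RPKM) the CvP level was 54.1-fold higher, and the lower 95% limit of the CvP/Epi ratio was 43.5. No other member had so many estimated reads at its listed length. The row spans chr11:51968378-51971409 on the minus strand and its listed length of 3.8 kb is 768 bases longer than that interval, whereas the annotated exon has 906 bases and keeps 1 reading frame without a stop through all 302 codons. It lies in an intron of the non-coding RNA gene *Gm16953* and touches 0 bases of that gene's exons. Of the 75-base windows of its exon, 70.3% occurred at 1 place in the genome. The rest of the listed length was not examined in this way, and where in it the reads lie is not known. The read count, its interval and the folds above rest on the listed length. A shorter length at the same RPKM would give fewer reads, a wider interval and smaller folds. Its neighbour *Olfr1373*, 9.35 kb away and in the same intron-bearing gene, had 0.15 RPKM in the CvP (4 reads) against 0.04 in the Epi (1 read).

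*Olfr461* (Entrez Gene 258380, chr6:40494035-40494976) had 1.16 RPKM in the CvP from 48 reads, with an interval of 0.861 to 1.55, and 0 in the Epi, which makes the CvP at least 15.6-fold higher against 3 Epi reads (0.0742 RPKM). All 75-base windows of its exon (100%) occurred once in the genome, and it had the most reads of the *Olfr* rows annotated as protein-coding. Its listed length of 1.449 kb was 507 bases longer than its interval. The windows covered the 942 bases of the annotated exon only, and where in the listed length the reads lie is not known. The read count, interval and fold rest on the listed length here too. The nearest member, *Olfr460*, lies 26.4 kb away and had 0.04 RPKM in the CvP (1 read) against 0 in the Epi.

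*Olfr901* (Entrez Gene 258028, chr9:38237869-38238804) had 0.86 RPKM in the CvP from 23 reads, with an interval of 0.549 to 1.30, and 0 in the Epi. The CvP was at least 7.49-fold higher, and 99.3% of its windows occurred at 1 place. The nearest row of another gene, *Vwa5a*, lay 287 kb away. These first 3 members and the next 3 shared the pattern of reads in the CvP and none in the Epi.

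*Olfr1414*, *Olfr1415* and *Olfr1416* (Entrez Gene 259041, 258228 and 259040) are neighbours on the minus strand of chromosome 1, between 94376258 and 94415092. *Olfr1414* had 0.66 RPKM in the CvP (22 reads, interval 0.409 to 0.987), *Olfr1415* 0.53 (14 reads, 0.288 to 0.885) and *Olfr1416* 0.37 (10 reads, 0.180 to 0.690), and each was at 0 in the Epi. The CvP was at least 7.30-fold, 4.61-fold and 3.23-fold higher, respectively. The order of these levels does not exceed counting error, since the 3 intervals overlap. As the stretches above show, reads from the shared parts cannot be assigned to 1 of the 3 genes, and 89.7%, 75.4% and 79.2% of their windows occurred at 1 place. The nearest row of another gene was *Ndufa10*, a subunit of mitochondrial complex I, 5.92 kb from *Olfr1416*, with 44.6 RPKM in the CvP against 43.19 in the Epi.

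**Figure D3:**
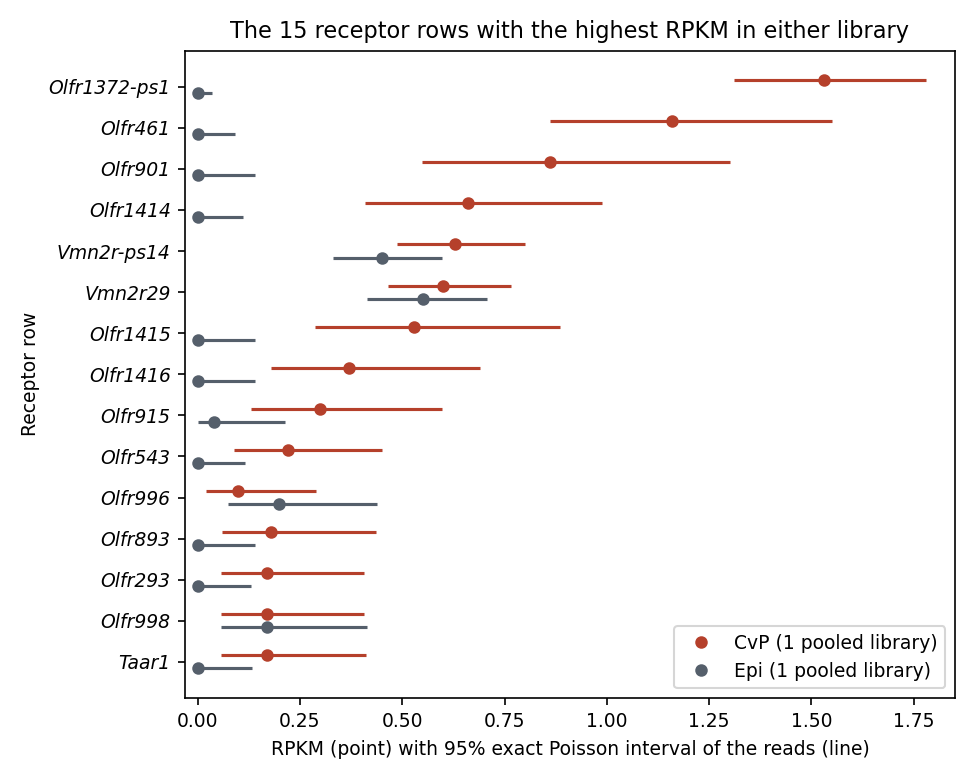
RPKM (horizontal axis) of the 15 receptor rows with the highest value in either library (vertical axis), for the CvP (red) and Epi (grey) libraries, with lines for the 95% exact Poisson interval of the reads. *Olfr1372-ps1*, *Olfr461*, *Olfr901*, *Olfr1414*, *Olfr1415* and *Olfr1416* have CvP intervals wholly above their Epi intervals, whereas the intervals of the other 9 rows overlap.

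*Vmn2r-ps14* and *Vmn2r29* were the only members with over 10 reads in the Epi, and their levels were close in both libraries. *Vmn2r-ps14* had 0.63 RPKM in the CvP (67 reads) against 0.45 in the Epi (47 reads), a ratio of 1.4 with a 95% exact Clopper-Pearson interval of 0.951 to 2.08. *Vmn2r29* had 0.60 (65 reads) and 0.55 (58 reads), a ratio of 1.09 with an interval of 0.762 to 1.60. Both intervals included 1 with RPKM as deposited. Together these 2 rows held 46.3% of the summed Epi RPKM of all members and 11.9% of the CvP sum.

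The sequence of both rows recurs elsewhere in the genome. The row of *Vmn2r-ps14*, chr4:145054113-145057864, lies to 85.6% (3211 bases) in exons that the reference annotation gives to *Smarca5-ps*, a pseudogene of the chromatin remodeller *Smarca5*, and 91.5% of its bases aligned to the *Smarca5* transcript, at 96.8% identity over the longest alignment. Of its 3678 windows of 75 bases, 2138 (58.1%) matched that transcript with at most 2 mismatches. The *Smarca5* row itself had 14.39 RPKM in the CvP against 11.81 in the Epi, with a CvP/Epi ratio of 1.22 (1.15 to 1.30). A stretch of the row at chr4:145055830-145055904 and the matching coding bases 2058 to 2132 of the *Smarca5* transcript are shown with their 2 differing bases in capitals.
*Vmn2r-ps14*: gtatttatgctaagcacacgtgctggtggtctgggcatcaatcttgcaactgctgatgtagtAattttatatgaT
*Smarca5*: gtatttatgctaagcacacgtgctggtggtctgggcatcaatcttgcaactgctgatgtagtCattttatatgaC
Whether reads of *Smarca5* enter the *Vmn2r-ps14* value was not tested. For *Vmn2r29* (chr7:7165707-7231000, minus strand), 12.3% of the windows occurred at 1 place in the genome, and the coding stretch at chr7:7184232-7184306, read along the gene, is found at 28 places.
*Vmn2r29*: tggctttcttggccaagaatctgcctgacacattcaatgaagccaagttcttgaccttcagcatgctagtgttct
Its neighbour *Zfp772*, a zinc finger gene 2998 bases away, had 9.86 RPKM in the CvP against 14.15 in the Epi.

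**Figure D4:**
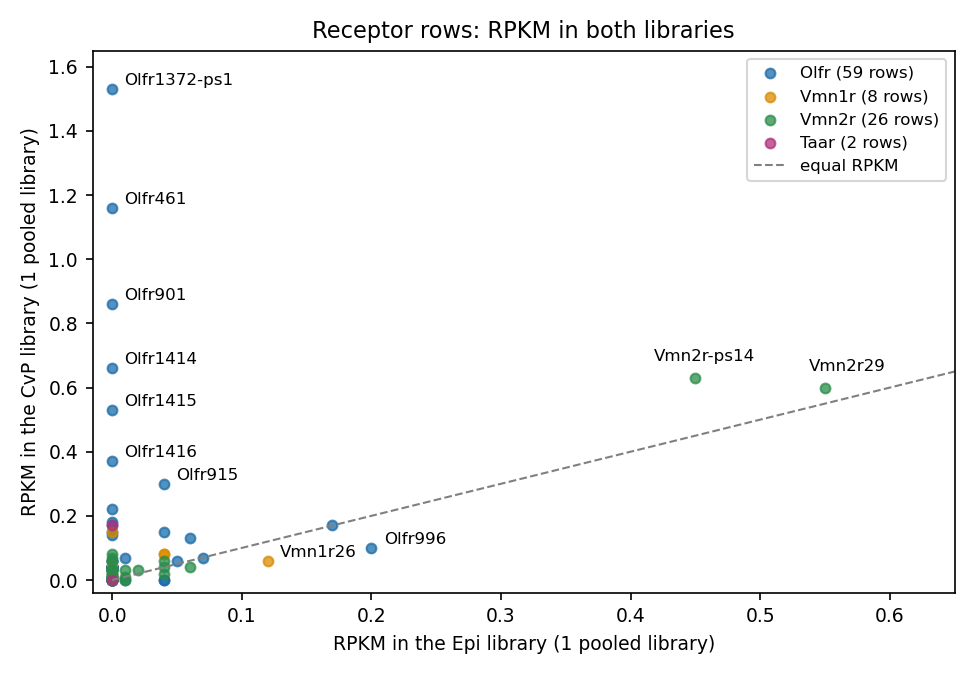
RPKM in the CvP library (vertical axis) against RPKM in the Epi library (horizontal axis) for the 95 receptor rows, coloured by family, with the dashed line at equal RPKM and different scales on the axes. The highest *Olfr* rows lie on the vertical axis at Epi 0, and *Vmn2r29* and *Vmn2r-ps14* lie near the dashed line.

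Summed over all members, RPKM was 10.33 in the CvP against 2.16 in the Epi, a ratio of 4.78. Without *Vmn2r29* and *Vmn2r-ps14* the sums were 9.10 and 1.16 and the ratio 7.84, a difference of over 1.5 times made by 2 rows. The *Olfr* rows summed to 7.81 and 0.730, the *Vmn2r* rows to 1.88 and 1.23, the *Vmn1r* rows to 0.470 and 0.200 and the *Taar* rows to 0.170 and 0. *Olfr1372-ps1* alone gave 14.8% of the CvP sum.

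A CvP/Epi ratio above 3 with more than 3 CvP reads was found for 20 members (21.1%), of which 14 were *Olfr*, 2 *Vmn1r*, 3 *Vmn2r* and 1 *Taar*. Over the whole table this criterion was met by 21.0% of rows. These shares do not compare the lean to the CvP, since 26.3% of members but 86.7% of all rows passed the CvP floor. Above that floor, 20 of 25 members met the ratio, against 3877 of 16035 rows of the table. Among rows no higher than the highest member in either library it was 2219 of 4374. A floor set in the CvP itself favours rows high in the CvP. Of the 20, 17 were at 0 in the Epi, 10 had at most 5 CvP reads and 6 were at least 3-fold higher against a floor of 3 Epi reads, namely the 6 *Olfr* rows described above. The opposite criterion, an Epi/CvP ratio above 3 with more than 3 Epi reads, was met by 0 members against 2.69% of all rows. The members had 8 rows with a higher RPKM in the Epi, 62 with a higher RPKM in the CvP and 4 with the same value above 0. Of all 18498 rows, 13880 had the higher RPKM in the CvP against 3909 with the higher RPKM in the Epi, so most rows of the table leaned the same way.

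The counting interval of the ratio lay above 1 for 9 members (9.47%), against 58.4% of all rows, and below 1 for 0 members, against 12.7%. Few reads widen these intervals, and only 2 members (2.11%) reached an RPKM of 1 in either library, against 67.8% of all rows. Besides the 6 *Olfr* rows already given, the 9 were *Olfr915*, *Olfr543* and *Vmn2r83*. *Olfr915* had 0.30 RPKM in the CvP (8 reads) against 0.04 in the Epi (1 read), a ratio of 7.50 with an interval of 1.05 to 349. *Olfr543* had 0.22 (7 reads) and 0, 2.31-fold higher in the CvP against 3 Epi reads, with a lower limit of 1.42. *Vmn2r83* had 0.08 (9 reads) and 0, 2.92-fold higher in the same way, with a lower limit of 1.94. *Olfr543* lies 7002 bases from *Rrm1*, a ribonucleotide reductase subunit with 12.11 RPKM in the CvP.

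A smaller group had as many or more reads in the Epi. *Olfr996* had 0.10 RPKM in the CvP (3 reads) against 0.20 in the Epi (6 reads), a ratio of 0.50 with an interval of 0.0796 to 2.30. Its neighbour *Olfr998*, 10228 bases away on chromosome 2, had 0.17 RPKM and 5 reads in both libraries. *Vmn1r26* had 0.06 (2 reads) and 0.12 (4 reads), a ratio of 0.50 (0.0445 to 3.43). All 3 intervals included 1, so a difference was not detectable at this depth. *Olfr920*, with 0.13 RPKM in the CvP (12 reads) against 0.06 in the Epi (5 reads), also had an interval that included 1 (0.774 to 8.55). *Olfr893* and *Olfr293*, with 0.18 and 0.17 RPKM in the CvP (5 reads each), were at 0 in the Epi, and the lower limit of their ratio was 0.901.

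Among the vomeronasal receptors of type 1, levels stayed within 0.15 RPKM. *Vmn1r42* had 0.15 in the CvP (4 reads) against 0 in the Epi, and *Vmn1r58* 0.05 (4 reads) and 0. *Vmn1r21* and *Vmn1r4*, of equal listed length, both had 0.08 (2 reads) and 0.04 (1 read). Such values differ by single reads and give no order within the family.

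Beyond *Vmn2r29* and *Vmn2r-ps14*, no type 2 vomeronasal receptor exceeded 0.08 RPKM. *Vmn2r57* had 0.07 in the CvP (5 reads) against 0 in the Epi, and *Vmn2r-ps129* had 0.04 (2 reads) and 0.06 (3 reads). The 2 rows of *Vmn2r46* had 0.06 and 0.04 in the CvP and 0.04 each in the Epi, and 0% of the windows of either occurred at 1 place. Of the 26 *Vmn2r* rows, 18 had fewer than 80% of windows at 1 place and 10 fewer than 50%, against 16 and 1 of the 59 *Olfr* rows. Values of single *Vmn2r* genes are therefore uncertain, since how reads with several matching places were counted is not given in the sources used here.

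*Taar1*, a receptor of trace amines that is known from tissues outside the nose, had 0.17 RPKM in the CvP (5 reads) against 0 in the Epi. The lower limit of its ratio was 0.901, so that a difference was not detectable at this depth with RPKM as deposited. *Taar2* was at 0 in both libraries. Of the olfactory receptors that have been described in other organs, *Olfr558* had 0 in the CvP against 0.01 in the Epi, which was 1 read, and *Olfr1393* was at 0 in both. *Olfr78*, *Olfr544*, *Olfr16*, *Olfr90* and *Olfr691* have no row in the table and were not analysed here.

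The rows cover a small part of these families. The reference annotation (GENCODE M1 on the same build) names 1249 *Olfr* genes, of which 57 (4.56%) matched a row by symbol, and 8 of 254 *Vmn1r* (3.15%), 23 of 179 *Vmn2r* (12.8%) and 2 of 16 *Taar* genes (12.5%) did. All 35 *Tas2r* genes had a row. The other receptors were not analysed here, and the shares above describe the listed rows only.

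Genes of the olfactory signalling cascade were present in tongue, whereas the subunits of its cyclic nucleotide-gated channel were at or near 0. All 14 genes of the list had a row, 12 passed the floor in the CvP against 9 in the Epi, and 8 had a CvP/Epi ratio above 3, where all rows of the table passed in 86.7% and 78.0% of cases and 21.0% had such a ratio. The G protein subunit *Gnal* had 2.32 RPKM in the CvP against 2.04 in the Epi, with a CvP/Epi ratio of 1.14 (0.978 to 1.32), and its row overlaps those of *Chmp1b* (24.49 and 29.04) and *Mppe1* (7.55 and 8.66). Adenylyl cyclase *Adcy3* had 4.25 and 1.86, a ratio of 2.28 (2.02 to 2.59), and its row overlaps that of *Cenpo* (1.64 and 1.14). The channel subunit *Cnga2* was at 0 in both libraries, *Cngb1* had 0 and 0.01, and *Cnga4* 0.10 (7 reads) and 0.02 (1 read). *Cnga4* is 1 of the 8 with a ratio above 3, but its interval of 0.884 to 310 included 1. These 3 genes encode the cyclic nucleotide-gated channel that opens in olfactory neurons.

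Further members of the cascade were higher in the CvP with 1 exception. The gamma subunit *Gng13*, which taste cells also use, had 77.39 RPKM in the CvP against 0 in the Epi. It was 651-fold higher against 3 Epi reads, with a lower limit of 529, although its row overlaps that of *Chtf18* (2.61 and 0.23). The exchanger *Slc24a4* had 1.11 and 0, 47.5-fold higher against 3 Epi reads, with a lower limit of 38.2. The receptor kinase *Adrbk2* had 5.89 and 1.18, the arrestin *Arrb2* 3.69 and 0.79, and the exchange factor *Ric8b* 5.95 and 1.45, with ratios of 4.99, 4.67 and 4.10. The beta subunit *Gnb1* had 83.82 and 57.3. The chloride channel *Ano2* was lower in the CvP, at 1.29 against 3.31, a ratio of 0.390 (0.319 to 0.474). The phosphodiesterases *Pde1c* and *Pde4a* stayed below 1 RPKM, at 0.61 and 0.01 and at 0.33 and 0.08.

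**Figure D5:**
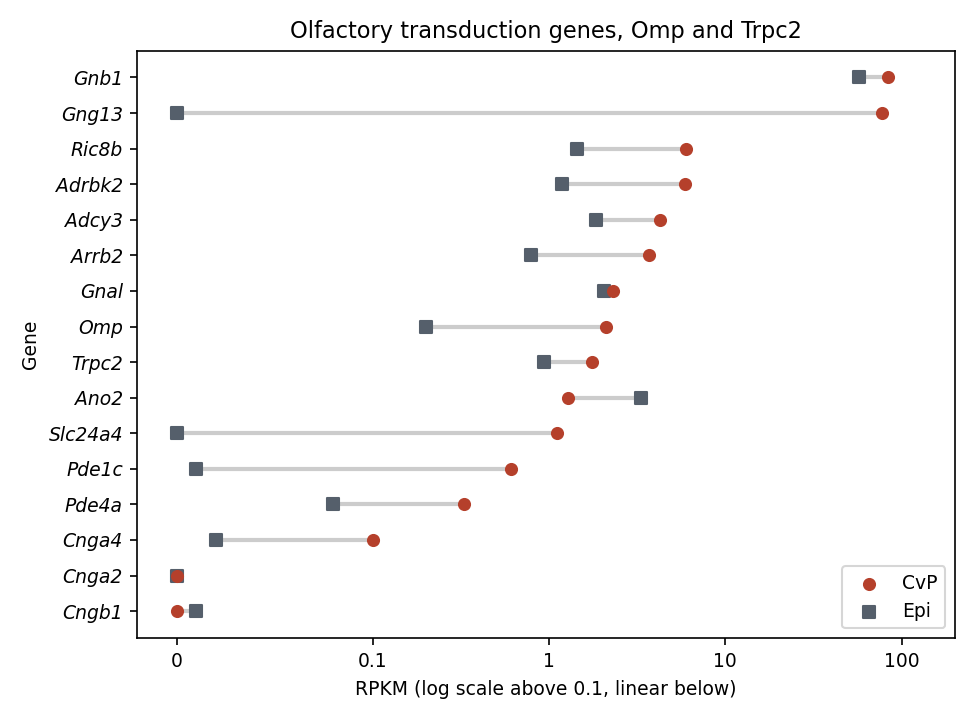
RPKM (horizontal axis, logarithmic above 0.1 and linear below) of the 14 olfactory transduction genes, *Omp* and *Trpc2* (vertical axis) in the CvP (red circles) and Epi (grey squares) libraries, 1 library each. *Gnal* is close in both libraries, *Ano2* is higher in the Epi, and *Cnga2* is at 0 in both.

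Of the genes that mark olfactory neurons or bring receptors to the cell surface, 15 of 20 had a row, 9 passed the floor in the CvP against 7 in the Epi, and 5 had a ratio above 3, beside the same shares of 86.7%, 78.0% and 21.0% over all rows. *Omp*, the olfactory marker protein, had 2.11 RPKM in the CvP (125 reads) against 0.20 in the Epi (12 reads), a ratio of 10.55 (5.66 to 20.4). Its row overlaps that of *Capn5*, a protease gene with 21.11 and 7.23 RPKM, and the part of *Capn5* reads in the *Omp* value was not tested. The transporter proteins *Rtp1* and *Rtp2* have no row and were not analysed here. Their relative *Rtp4* had 4.95 and 1.34, a ratio of 3.69, and *Reep6* had 8.03 and 2.08, a ratio of 3.86. *Reep1* had 0.89 and 1.12 with an interval that included 1 (0.600 to 1.05). The other 2 of the 5 with a ratio above 3 were low. *Ebf4* had 0.48 (36 reads) and 0.01 (1 read), a ratio of 48.0 (5.96 to 1437). *Ncam2* had 0.17 (30 reads) and 0, with a lower limit of 7.52. *Ebf1* had 0.05 and 0, *Ebf2* 0 and 0.02, and *Ebf3* 0.02 and 0.01. The transcription factor *Lhx2*, needed for olfactory neurons, had 0 and 0.02, and *Stoml3* had 0 and 0.08. The broadly expressed cofactors *Ldb1*, *Kdm1a* and *Atf5* had 38.5 and 30.43, 26.59 and 14.97, and 8.73 and 9.6. The row of *Atf5* overlaps that of *Nup62* (13.28 and 14.11).

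Of the vomeronasal list, 8 of 18 genes had a row, and 6 passed the floor in the CvP against 5 in the Epi, beside 86.7% and 78.0% of all rows. A ratio above 3 was found for 2 of the 8, a share close to the 21.0% of all rows. *Trpc2* had 1.76 RPKM in the CvP against 0.94 in the Epi, a ratio of 1.87 (1.55 to 2.26). *Gnai2*, the G protein subunit that accompanies type 1 receptors and is also widely expressed, had 64.49 and 22.92, a ratio of 2.81, and *Gnao1*, its counterpart for type 2 receptors, had 0.94 and 0.06, a ratio of 15.7 (9.27 to 28.3). *Tfap2e*, listed as *Tcfap2e*, had 3.6 and 1.95. *Cyp2g1*, an enzyme of the non-sensory olfactory mucosa, had 0.55 and 0.04, and the carrier *Mup5* was at 0 in both, while the other 10 genes of that list have no row.

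The 2 libraries also differed in markers of other cell types, and the part of these cells in the receptor values was not tested. Over 8 genes, the summed RPKM of immune markers was 208 in the CvP against 22.2 in the Epi. All 8 were higher in the CvP, but *Lyz2* (131.64 and 0.43) and *Cd74* (60.56 and 19.9) made most of the CvP sum. For nerve and Schwann cell genes it was 26.8 and 41.6, with 7 of 8 genes higher in the CvP. The exception, *Tubb3* (4.58 and 40.37), made most of the Epi sum. Skeletal muscle genes summed to 3.29 and 45.1, with 6 of 6 higher in the Epi, and keratinized epithelium to 32419 and 82659. Vascular and smooth muscle genes summed to 2.50 and 2.04 and erythroid genes to 2.58 and 2.09. Among the erythroid genes *Alas2* had 1.37 and 0.22, whereas both *Hba-a1* rows were higher in the Epi. Of 6 markers of male germ cells, in which olfactory receptors are known outside the nose, 3 had a row and 0 passed the floor in either library.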

How the data were processed

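The data were 2 poly(A) RNA libraries, 1 per tissue, each of pooled RNA. The authors mapped single-end reads of 75 bases with Bowtie 0.12.7 to NCBI37/mm9 and deposited RPKM values made with ERANGE, a gene length and a position per row. The deposited column of ratios and its comparison values were not used. Receptor rows were taken by symbol, and the members, gene lists and rules were chosen with earlier results of these data known. Genes named were the 15 highest members, the 5 highest of each smaller family, members whose interval excluded 1, preset receptors, pathway genes and close neighbours. *Olfr1373*, *Olfr460*, *Olfr920*, *Vmn2r46*, *Smarca5*, *Zfp772*, *Ndufa10*, *Vwa5a*, *Rrm1* and the low pathway genes were named after their values were seen. Depth was estimated from 108 CvP and 103 Epi rows of 0.1 kb, where 88.0% and 93.2% of values were whole reads to within rounding. Of receptor rows of at most 1.1 kb above 0, 21 of 29 (72.4%) in the CvP and 6 of 9 (66.7%) in the Epi were whole reads to within rounding. Ratios had 95% exact Clopper-Pearson intervals. Folds against Epi 0 divided the CvP RPKM by that of 3 Epi reads. They leave out counting error in the CvP, which the lower 95% limits include. Windows of 75 bases were counted by exact match on both strands, and other genes were sought with BLAST 2.17.0. Positions and exons came from GENCODE M1. Depth, calls and intervals were tested on simulated data. These were drawn with the same listed lengths, so they cannot test whether the estimated reads match the real ones. Alternatives changed floor, length, scale, filter, pseudocount and rows. Python 3.11.15, numpy 2.4.6, pandas 2.3.3, scipy 1.17.1 and matplotlib 3.10.9 were used.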

Additional observations from a re-analysis of the deposited data

How the results depend on the processing

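No paired analysis was possible because only 1 pooled library was made for a tissue, and for the same reason no library could be left out. Among the counts, a floor of more than 5 reads left 13 members in the CvP, 3 in the Epi and 10 with a CvP/Epi ratio above 3, and one of more than 10 reads left 8, 2 and 5, with 5 intervals that excluded 1. A pseudocount of 0.1 left 7 members with a ratio above 3 and one of 1 left 0. A minimum RPKM of 0.1, 0.5, 3 or 10 in place of 1 gave 21, 7, 0 and 0 members. Rescaling both libraries to a common summed RPKM, which was 1.21 times higher in the Epi, gave 15 intervals that excluded 1 in place of 9 and a summed ratio of 5.77 in place of 4.78. Among the added intervals, which then lay above 1, were those of *Vmn2r-ps14*, *Taar1*, *Olfr893*, *Olfr293* and *Vmn2r57*. Whether these members differ thus depends on the scale. Dividing by the median ratio over rows of at least 1 RPKM in both libraries, 1.31, gave a summed ratio of 3.64. Chosen after seeing the data, members with at least 80% of windows at 1 place gave 14 above the floor in the CvP, 12 with a ratio above 3 and a summed ratio of 6.43, and leaving out *Vmn2r29* and *Vmn2r-ps14* gave 7.84. Of 57 alternative settings for these results, 41 stayed within 1.5 times of a count or within the counting error of a value. Counts and shares have no direction that could reverse. The summed ratio, which has one, stayed above 1 in its alternatives. Of 40 alternative ratios of 20 named receptors, 36 lay within the counting interval of the reported ratio. The others were all lower. The fold of *Olfr1372-ps1* fell from 54.1 to 16.3 with a pseudocount of 0.1 and to 41.2 on division by the median ratio. That division took *Olfr461* from 15.6 to 11.9, and the pseudocount of 0.1 took *Vmn2r83* from 2.92 to 1.80. Division by the median ratio moved *Vmn2r29* from 1.09 to 0.831, *Olfr998* from 1 to 0.762, and the folds of *Vmn1r58* and *Vmn1r42* against 3 Epi reads from 1.25 to 0.949 and from 1.31 to 1. The intervals of these 4 included 1. Depth limits single members, since most rows above 0 rest on 1 to 3 reads.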

Other observations

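Other small chemoreceptor families, looked up after the values of the receptor rows were seen, were also low. The formyl peptide receptors *Fpr1* and *Fpr2*, which act in innate immune cells and have relatives in the vomeronasal organ, had 0.18 RPKM (7 reads) and 0.35 (14 reads) in the CvP against 0 in the Epi. *Ms4a7* had 1.24 in the CvP (33 reads) against 0.07 in the Epi (2 reads). *Ms4a10* was higher in the Epi, at 0.78 (22 reads) against 0.35 (10 reads). *Gucy2d*, the guanylyl cyclase of a special group of olfactory neurons, had 0 in the CvP against 0.01 in the Epi (1 read), whereas *Gucy2g*, the cyclase of the Grueneberg ganglion, had 0.65 (119 reads) and 0.43 (78 reads). *Gucy2e* had 0.21 in the CvP (50 reads) against 0 in the Epi. These are values of 1 library per tissue.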
